A study of Mus musculus with 4 samples.

Results

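Binding of KLF1 was described in a window of chromosome 6 that was laid over the genes Hipk2 and Tbxas1, from position 38630000 to 39050000 of the mouse build mm9 (chr6:38630000-39050000). The members were the rows of the authors' peak list whose start lies in that window, 4 of 945 listed peaks and 4 of the 52 on chromosome 6, together with the reads that fell there, 4438 of 17438921 ChIP reads and 12393 of 47356494 input reads. The window was chosen by the positions and heights of these peaks, which rest on the ChIP reads, so the number of peaks in it and their heights are a description and were not tested.

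The material was fetal liver at E14.5, the stage at which this organ makes most red blood cells. It came from Balb/c mice lacking Klf3 (Klf3 -/-). Cells of 4 livers were pooled, and the labels give the cell type as erythroid and the sex as female. In the ChIP group, chromatin was precipitated with a rabbit polyclonal antibody to KLF1. The input group was DNA that had not been precipitated. Each group was sequenced on SOLiD systems 2.0 and 3.0, and the deposited files combine both runs, so each group is a single combined library with no replicate error. Both groups lack Klf3, and no library from livers with Klf3, without Klf1 or with a control antibody was analysed here. Binding says nothing of RNA levels, so the labelled cell type could not be checked against marker genes.

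The transcription factor KLF1 (EKLF) acts in red cell precursors and binds CACCC-type sequences in promoters and enhancers, those of the adult beta-globin gene among them. HIPK2 is a nuclear serine/threonine kinase that phosphorylates transcription factors and cofactors, p53 among them, and it has been linked to the terminal maturation of fetal liver red cells. TBXAS1 is thromboxane A synthase, a cytochrome P450 enzyme that turns prostaglandin H2 into thromboxane A2, the platelet-activating lipid. In RefSeq's gene order (GRCm38.p6) Hipk2 and Tbxas1 are neighbours, with no start of another protein-coding gene between the starts of their spans, and the annotated spans overlap. Clec2l precedes Hipk2 and Parp12 follows Tbxas1 among the protein-coding genes. Gene positions in mm9 were not used here, so whether each summit lies in a gene, a promoter or between genes was not determined.

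The RefSeq promoters of both genes are shown because a motif of the CACCC type, CCNCNCCC, occurs in the one and not in the other. Each run is the 250 bases before a transcript start in GRCm38.p6, 5′ to 3′ on the strand of the gene, with matches to CCNCNCCC on either strand in capitals. The Hipk2 promoter lies on the minus strand at chr6:38876191-38876440 and the Tbxas1 promoter on the plus strand at chr6:38918736-38918985. These positions are of GRCm38.p6 and cannot be set against the mm9 positions of the summits.
Hipk2: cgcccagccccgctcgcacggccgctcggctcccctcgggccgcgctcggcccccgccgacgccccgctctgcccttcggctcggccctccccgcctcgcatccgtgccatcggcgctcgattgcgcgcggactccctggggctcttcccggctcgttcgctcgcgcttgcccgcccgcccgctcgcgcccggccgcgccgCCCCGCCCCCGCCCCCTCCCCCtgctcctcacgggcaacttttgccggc
Tbxas1: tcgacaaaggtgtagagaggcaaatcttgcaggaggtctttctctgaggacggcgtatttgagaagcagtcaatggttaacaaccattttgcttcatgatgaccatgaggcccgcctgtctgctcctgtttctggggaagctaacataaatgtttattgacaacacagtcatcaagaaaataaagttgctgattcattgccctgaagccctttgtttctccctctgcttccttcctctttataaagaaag

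The Hipk2 promoter held 6 overlapping matches to CCNCNCCC in a single run of 22 bases. Of all 32851 RefSeq promoter entries, 45.9% held the motif and 4.47% held it as often or more often. The same Hipk2 stretch held 5 matches to CCGCCC, only some of which share bases with CCNCNCCC matches, and 32.7% of entries held that motif. Its GC content was 80.8%, against a median of 52.4% over all entries. The Tbxas1 promoter, with a GC content of 43.6%, held no match to either motif, and neither did a second RefSeq promoter entry of Hipk2. In these 3 entries no match was found to CCACACCC or to the GATA-type AGATAA, which occur in 3.20% and 9.99% of entries. The E-box letters CANNTG occurred once, in the second Hipk2 entry, and in 66.2% of all entries. A match is a stretch of letters and not a bound site.

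The 4 listed peaks are called P1 to P4 in order of position. P1 was listed at chr6:38853236-38853243 with a height of 15, the height being the authors' count of ChIP reads over the summit. P2 was listed at chr6:38861000-38861000 and P3 at chr6:38866741-38866742, both with a height of 22. P4 was listed at chr6:38874265-38874284 with a height of 10. P2 and P3 were thus equally high and stood in the middle of the cluster, with lower summits on either side. Over the whole list the heights ran from 9 to 57 with a median of 11, and 11.1% of peaks reached 20 or more, as P2 and P3 did. Each of these had 69 of the 945 peaks above it, P1 had 188 and P4 had 504. P4 was 1 read above the lowest listed height.

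**Figure D1:**
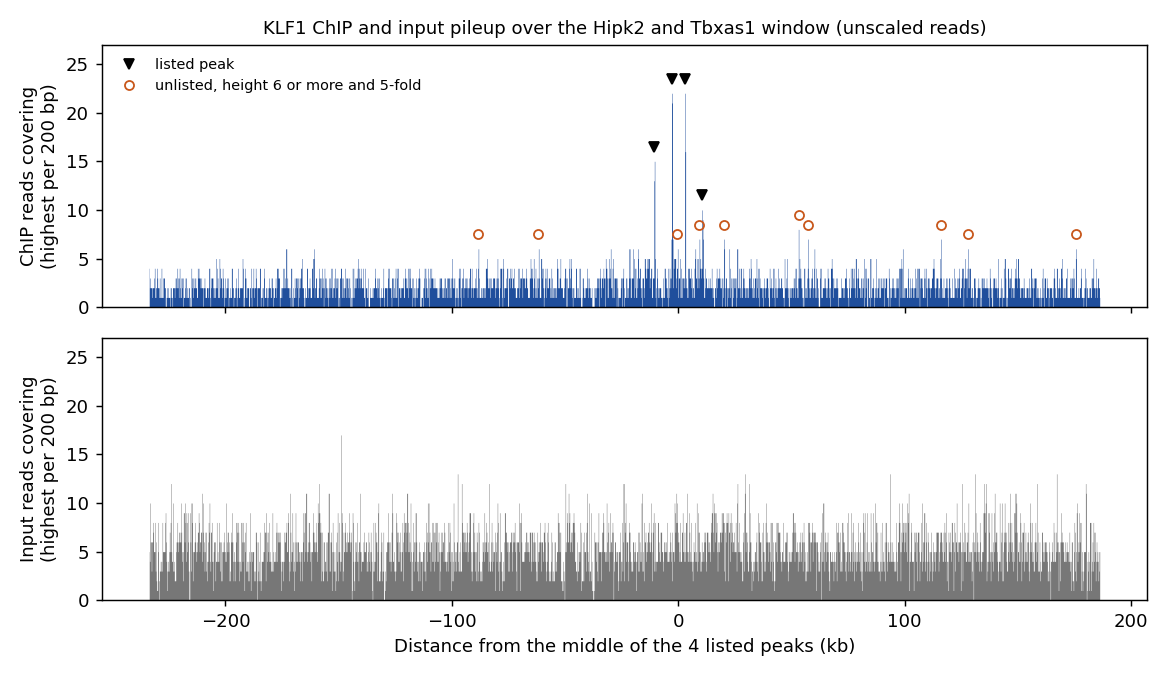
ChIP reads (top) and input reads (bottom) covering each position, as the highest count in each 200 bp step, against the distance in kb from the middle of the 4 listed peaks. The 4 listed summits (triangles) reach 10 to 22 ChIP reads, the unlisted maxima (circles) 6 to 8, and the input shows no summit at the same places.

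The summits lay a few kb apart. P2 lay 7764 bp after P1, P3 5741 bp after P2 and P4 7524 bp after P3, and the whole cluster spanned 21029 bp from the first to the last listed start. All 6 pairs of members lay within 50 kb of each other, and 3 pairs within 10 kb. Each member therefore had 3 others within 50 kb, and 2.43% of all listed peaks had 3 or more. Outside the cluster no listed peak lay near. The preceding one on the chromosome, at chr6:35303720-35303740 with a height of 9, was 3550 kb before P1, and the next, at chr6:41654401-41654403 with a height of 9, was 2780 kb after P4. Of 6276 tiles of 420 kb laid over the autosomes and chromosome X, 13 (0.207%) held 4 or more listed peaks.

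At each summit the ChIP reads outnumbered the input reads although the input library was 2.72 times as large. At P1, 15 ChIP reads (5 forward, 10 reverse) and 2 input reads covered the listed start. At P2, 22 ChIP reads (9 forward, 13 reverse) and 2 input reads did so. P3 had 22 ChIP reads (12 forward, 10 reverse) and 4 input reads. P4 had 10 ChIP reads (5 forward, 5 reverse) and 3 input reads. Input reads at the summits were thus about as many as elsewhere in the window, where a position was covered by a mean of 2.98 input reads and 1.03 ChIP reads when 1 kb around each member was left out. The highest input pileup in the window, 17 reads at chr6:38714871-38714871, had 3 ChIP reads over it.

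Scaled to all aligned reads, the ratio of ChIP to input was 20.4 at P1 (95% Clopper-Pearson interval 4.74 to 184), 29.9 at P2 (7.34 to 262), 14.9 at P3 (5.07 to 59.6) and 9.05 at P4 (2.33 to 51.2). With 1 read added to each library, which draws ratios of few reads toward the middle, the values ran from 7.47-fold at P4 to 20.8-fold at P2. All these intervals overlap. Differences between the 4 summits were not tested, so no order of enrichment is read from the values. The intervals cover counting error only. All 4 members were 5-fold or more, as were 98.2% of listed peaks, and since the peaks were listed for these reads nothing is read from that count. With 5′ ends counted within 100 bp of the centre in place of reads covering it, P4 had 13 ChIP and 7 input reads and fell to 4.75-fold with 1 read added. With reads extended to 80 positions in place of 101, P3 was at 25.8-fold with 1 read added, against 12.5-fold before, and so above the 21.7-fold of P2.

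**Figure D2:**
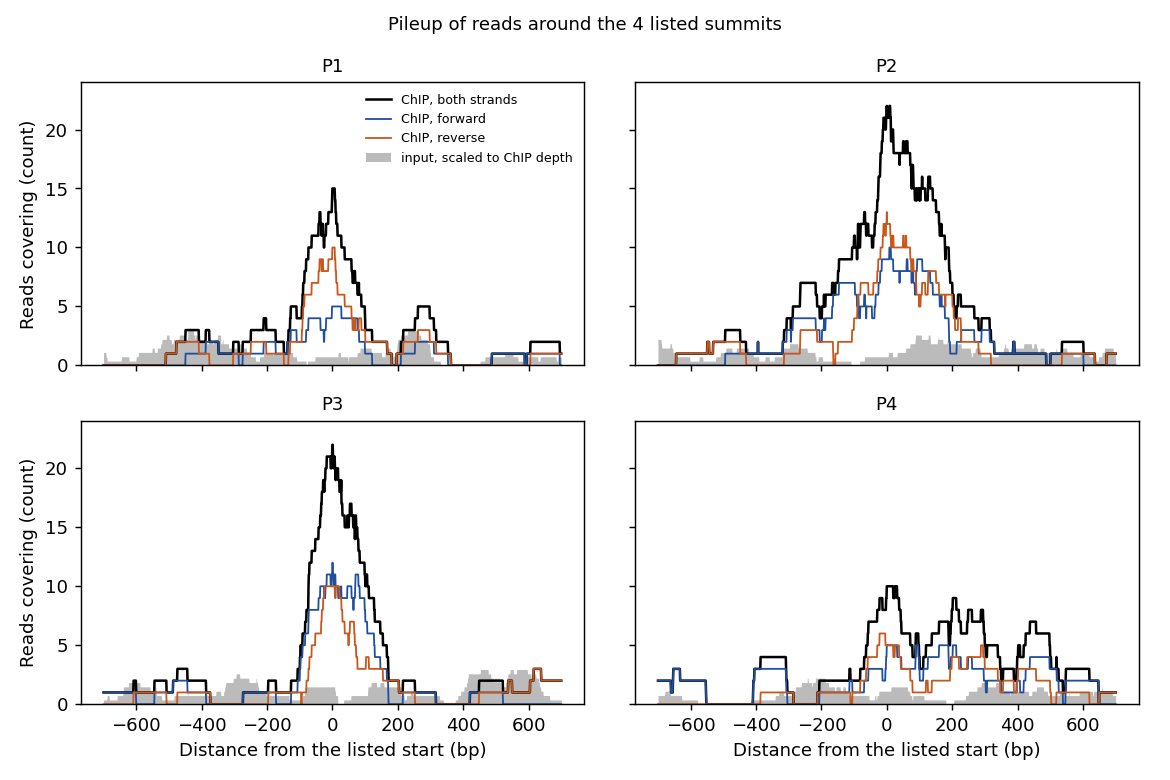
Reads covering each position (count) against the distance in bp from the listed start, for ChIP reads of both strands (black), forward (blue) and reverse (orange), and for input scaled to ChIP depth (grey). P2 is the broadest single summit, P3 is as high but narrower, and P4 shows further apices of 9 and 7 reads at 202 and 438 bp.

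The 4 summits differed in shape. The width over which the ChIP pileup stayed at or above 50% of its summit was 147 positions at P1, 219 at P2, 173 at P3 and 142 at P4. Among the other 16 listed peaks of height 22, P3 included, this width ran from 110 to 200 with a median of 149, so P2 was wider than each of them. The stretch at P2 did not take in its apex at 69 bp before the listed start. Between them the pileup fell to 10 reads, under 50% of 22. P3 was narrower than 4 of the other 16. Among the other 35 peaks of height 15, 13 were wider than P1, and among the other 156 peaks of height 10, 70 were wider than P4.

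P4 was not a single summit. From 10 reads at the listed start the pileup fell to 3 and rose again to 9 reads at 202 bp, at chr6:38874467-38874467, where no input read covered the position. Beside it lay lower apices of 7 reads at 160 bp, 8 at 249 bp and 8 at 288 bp, with 1, 2 and 4 input reads. A further apex of 7 reads followed at 438 bp, with 2 input reads. No listed peak marks any of these apices, although the one at 202 bp had the lowest height at which other sites were listed. At P2 the pileup had an apex of 13 reads at 69 bp before the listed start, with a fall to 10 between and 1 input read. Farther out it had a lower shoulder, 7 reads at 264 bp before the listed start, with 4 input reads. P1 had an apex of 13 reads at 39 bp before its listed start, with a fall to 10 between and 2 input reads. At P1 and P3 no second apex set off by a dip of 3 or more reads reached 6 reads beyond 100 bp and within 1 kb of the summit.

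Flank reads, with 5′ ends from 101 to 300 bp on both sides of the centre, were counted next. At P2 and P3 they do not cover the listed start and so did not set the height. At P1 and P4 the centre lies a few bp after the listed start, so forward reads at the inner edge could cover it. The flank of P4 also takes in its apex at 202 bp. All flank reads come from the same 2 libraries. P1 had 11 ChIP and 16 input reads there, a ratio of 1.87 (0.783 to 4.28). P2 had 26 ChIP and 12 input reads, a ratio of 5.88 (2.87 to 12.8). P3 had 9 ChIP and 12 input reads, a ratio of 2.04 (0.758 to 5.27), and P4 had 16 ChIP and 11 input reads, a ratio of 3.95 (1.72 to 9.41). The intervals of P2 and P4 exclude 1, those of P1 and P3 include it, and all 4 overlap. With 1 read added, 3 of the 4 members were at 2-fold or more (P2, P3 and P4), against 52.9% of all listed peaks.

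P2 and P3 had equal heights and unequal flank counts. None of the other 16 listed peaks of height 22 had more flank ChIP reads than the 26 of P2, and their median was 15.5. For P3, with 9, the other 16 had a median of 18 and 12 of them had more. P4, with 16, was not exceeded by any of the other 156 peaks of height 10 (median 7, 3 of them equal). P1, with 11, equalled the median of 11 of the other 35 peaks of height 15. P2 and P3 each had 12 input reads in the flanks, and the intervals of their ratios to input overlapped. The difference between these 2 peaks was not tested.

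**Figure D3:**
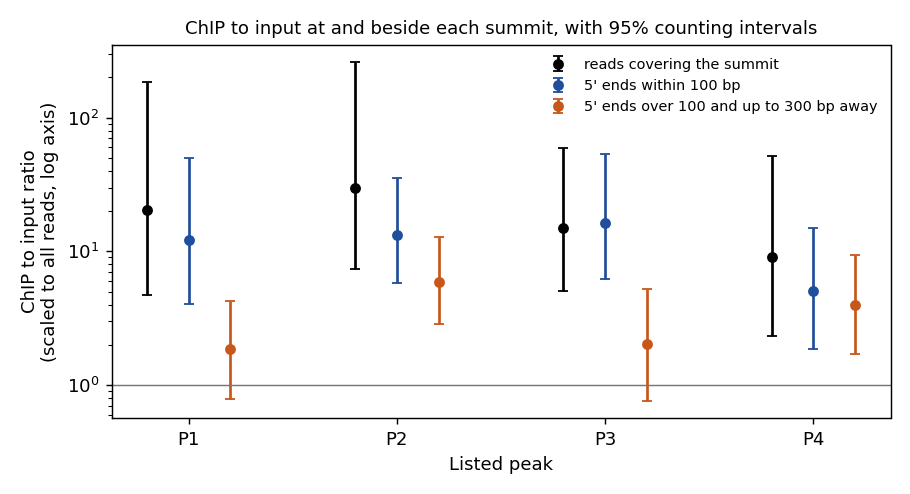
ChIP to input ratio of the 4 listed peaks on a log axis, from reads covering the summit (black), 5′ ends within 100 bp of the centre (blue) and 5′ ends over 100 and up to 300 bp away (orange), with bars for the 95% counting interval. All intervals at the summits lie above 1, and of the flanks only those of P2 and P4 do.

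Pooled over the 4 peaks, ChIP exceeded input 11.2-fold within 100 bp of the centre (95 ChIP and 23 input reads, 7.05 to 18.5). The ratio was 4.07 (2.30 to 7.33) at 101 to 200 bp, 2.72 (1.57 to 4.71) at 201 to 300 bp and 2.00 (1.22 to 3.27) at 301 to 500 bp. At 501 to 1000 bp it was 1.01 (0.71 to 1.42). Up to 500 bp from the centre the intervals lay above 1, and beyond it they included 1. Over all 945 peaks the same classes gave 7.72, 2.65, 1.90, 1.34 and 1.18, the first 4 of them lower than in the window. The members' heights were 15, 22, 22 and 10 against a list median of 11, and the window was chosen by heights. The full list was not matched in height, so nothing is read from the higher ratios. The intervals for the full list, 7.48 to 7.96 for the first class and 1.29 to 1.39 for that of 301 to 500 bp, lay inside those of the 4 peaks. At 301 to 500 bp most of the excess was at P4, with 13 ChIP and 7 input reads, while P3 had 3 and 12.

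**Figure D4:**
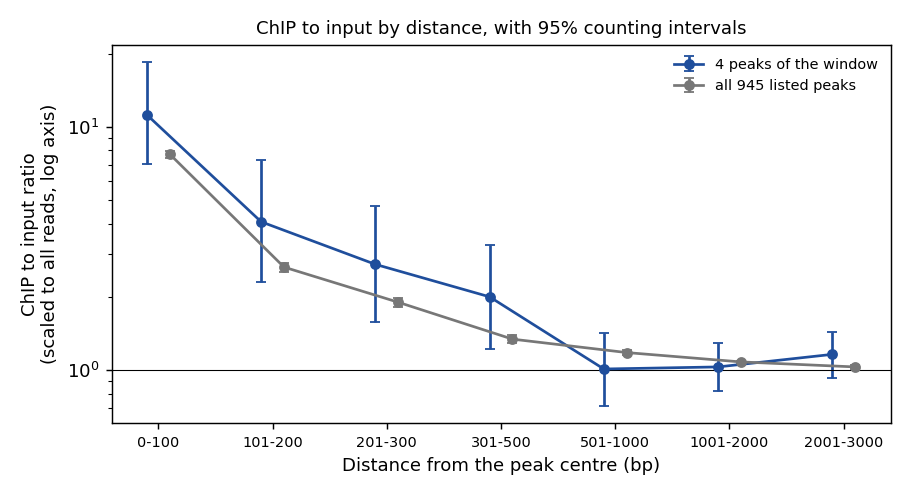
ChIP to input ratio on a log axis by distance from the peak centre in bp, pooled over the 4 peaks of the window (blue) and over all 945 listed peaks (grey), with 95% counting intervals. The ratio of the 4 peaks falls from 11.2 within 100 bp to 1.01 at 501 to 1000 bp.

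The pooled flank ratio from 101 to 300 bp was 3.30 (62 ChIP and 51 input reads, 2.24 to 4.88). Without P2 it was 2.51 (1.55 to 4.05), and without P1, P3 or P4 it was 3.96, 3.69 and 3.12. The list holds 2 other groups of 4 peaks in steps of up to 10 kb. On chromosome 5, at chr5:118930175-118942727, the flank ratio was 1.89 (25 ChIP and 36 input reads, 1.09 to 3.23). On chromosome 11, at chr11:115368085-115374725, it was 1.94 (30 and 42 reads, 1.17 to 3.17). The summed height was 69 reads here, 45 on chromosome 5 and 40 on chromosome 11. The flank interval of the Hipk2 and Tbxas1 cluster overlapped those of both other groups.

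The strands of the flank reads leaned to opposite sides. Before the 4 summits, 18 of 25 ChIP reads were on the forward strand (72.0%, 50.6% to 87.9%), and after them 14 of 37 (37.8%, 22.5% to 55.2%). Over all listed peaks the shares were 59.4% and 39.5%. In the input around the same 4 summits, 4 of 21 reads (19.0%, 5.45% to 41.9%) were forward before and 13 of 30 (43.3%, 25.5% to 62.6%) after, against 50.6% and 48.8% around all listed peaks. The low forward share in the input before the summits rests on 21 reads, none of them forward at P1 (0 of 6) and P3 (0 of 5). At P1, 4 of 6 ChIP reads were forward before the summit and 2 of 5 after it. The same lean was seen at P2, with 9 of 12 forward before and 4 of 14 after, and at P3, with 3 of 3 and 1 of 6. At P4, where the pileup has several apices, it was not seen, with 2 of 4 forward before and 7 of 12 after. At each single peak the intervals of both shares included equal strands. In the input after the summit, 2 of 9 reads were forward at P2 and 2 of 7 at P3, against 5 of 10 at P1 and 4 of 4 at P4. Within 100 bp of the centre the median forward 5′ end lay before the median reverse 5′ end at each peak, by 47.5 bp at P1, 59.0 at P2, 54.0 at P3 and 41.5 at P4. Those reads set the summits and so lean this way in part by construction. The inserts of the libraries were 80 to 130 bp long, per the labels.

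Between the summits the ChIP library was close to the input. With 1 kb around each member left out, the 15 kb from P1 to P4 held 195 ChIP and 492 input reads, a ratio of 1.08 (0.907 to 1.27). By interval, the ratio was 0.853 (0.616 to 1.16) from P1 to P2, 1.03 (0.746 to 1.42) from P2 to P3 and 1.33 (1.02 to 1.74) from P3 to P4. The last of these held the unlisted maximum described below at 1.16 kb from P4, and the stretch from P2 to P3 held the one at 2.41 kb from P2. The whole window without the members, which takes in these stretches, had a ratio of 0.939 (0.907 to 0.973). The interval from P3 to P4 lay above that range. Those from P1 to P2, from P2 to P3 and of the whole 15 kb overlapped it. Whether reads between the summits were raised over the rest of the window was not tested.

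The sides of the cluster differed. With the nearest 1 kb left out, the 10 kb before P1 held 138 ChIP and 259 input reads, a ratio of 1.45 (1.17 to 1.79), and the 10 kb after P4 held 91 and 346 reads, a ratio of 0.714 (0.561 to 0.902). In ChIP reads per kb these stretches held 15.3 and 10.1, and in input reads per kb 28.8 and 38.5, so that the libraries differed in opposite directions. Of all autosomal 10 kb bins with 100 or more input reads, 11.8% had a ratio of 1.25 or more and 4.98% of 0.75 or less. A ratio as high as that before P1 was seen in 2.45% of these bins, and one as low as that after P4 in 2.80%. The comparison is rough, since a bin could hold as few as 100 input reads, where counting scatter is larger. The stretches also left out the 1 kb nearest the members. Before P1 the pileup reached 6 at most, at 2 unlisted maxima. Each of these was 4.75-fold over input with 1 read added, just under the 5-fold limit. After P4 the pileup reached 7, at 1 unlisted maximum that was 10.9-fold over input with 1 read added. The maxima thus did not follow the ratios of the 2 sides. Taken over 50 kb the ratios were 1.1 before and 0.886 after. What causes the difference was not tested.

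Over the whole window the ratio was 0.972 (0.939 to 1.01), and 0.939 (0.907 to 0.973) without the members. In 20 kb bins it ran from 0.772 to 1.49 with a median of 0.953, against a median of 1.02 over 116597 autosomal bins. The bin with P1, P2 and P3 had the highest value, 359 ChIP and 655 input reads and a ratio of 1.49 (1.30 to 1.70), and the bin before it was next with 1.16 (0.995 to 1.35). P4 lay in a bin with a ratio of 1.02 (0.88 to 1.17). In the window 1 of 21 bins reached 1.25, and 10.3% of autosomal bins did. Over the autosomes 1337 bins (1.15%) were as high as the bin with P1 to P3 or higher. That bin holds the reads of 3 members, for which the window was chosen, so nothing is read from its rank.

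**Figure D5:**
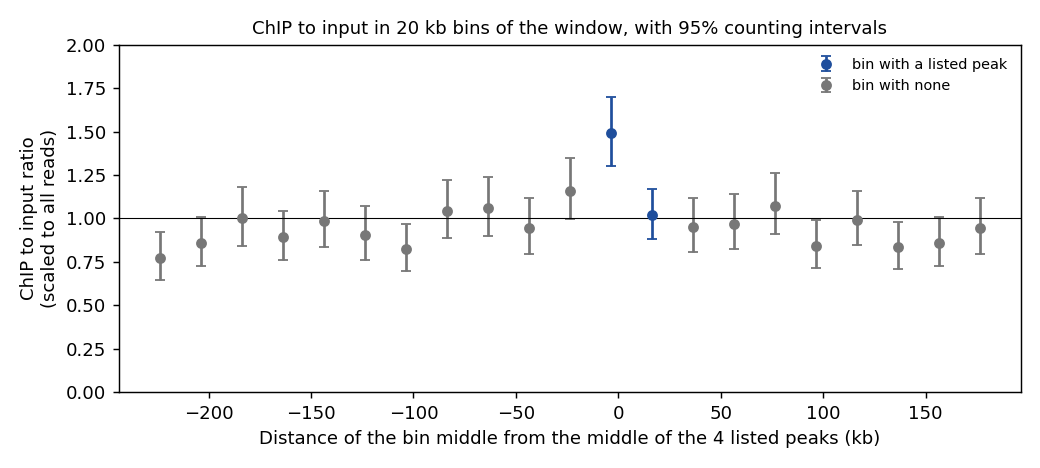
ChIP to input ratio in 20 kb bins against the distance in kb from the middle of the 4 listed peaks, with 95% counting intervals, for bins with a listed peak (blue) and without (grey). The bin with P1 to P3 is at 1.49 and all others are at 1.16 or below.

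Below the heights of the list, the window held 21 unlisted maxima of 6 or more ChIP reads, of which 10 were 5-fold or more over input with 1 read added, against 41.3% of such maxima over chromosome 6. Among these 10, 2 lay inside the cluster. One, at chr6:38873108-38873108, had 7 ChIP reads and no input read and lay 1.16 kb from P4. The other, at chr6:38863412-38863412, had 6 ChIP reads and no input read and lay 2.41 kb from P2. Their ratio has no upper limit, and the lower limits were 3.91 and 3.20.

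The other 8 were spread over the window. The highest, with 8 ChIP and 3 input reads (ratio 6.11, interval 1.74 to 42.4), was at chr6:38916892-38916892, 42.6 kb from P4, and 46.8 kb from P4 lay one of 7 ChIP reads and 1 input read at chr6:38921033-38921033. At 9.71 kb from P4, 7 ChIP reads and 1 input read covered chr6:38883970-38883970. Another, of 7 ChIP and 2 input reads, was at chr6:38979667-38979667. The remaining 4, all of 6 reads, were at chr6:38775474-38775474, chr6:38802031-38802031, chr6:38991662-38991662 and chr6:39039401-39039401. All 10 held reads of both strands.

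The window was covered more deeply than the chromosome as a whole. It held 10.6 ChIP and 29.5 input reads per kb, against 6.93 and 18.5 over chromosome 6, and 23.8 maxima per Mb against 6.31. Among 28 tiles of 420 kb on chromosome 6 whose input reads were within 10% of the window's, the count ran from 1 to 10 with a median of 4, and 2 tiles had as many as the window. Of these 28 tiles, 21 held no listed peak and none held more than 2. With the extension of 80 positions the window held 6 such maxima, and with the limit at 5 or 7 reads it held 18 or 5, so the sites themselves are uncertain at this depth.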

How the data were processed

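KLF1 ChIP and input DNA were measured in 2 groups of 2 sequencing runs. Per the series' design text in the labels, the deposited read files and peak list hold both runs combined, so each group was 1 library and no replicate test was possible. The build mm9 comes from the submitters' processing notes, while the aligner and the peak caller are not given in the sources used here. The fourth column of the peak list, deposited by the authors, was used as a signal. When ChIP reads were lengthened to 101 positions, their number over the start of a peak equalled its value in all 945 cases. Positions are printed as deposited, and whether they start at 0 or 1 is not stated. On chromosome 6 no reads of a library shared position and strand.

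From these reads, ratios were scaled to all aligned reads (17438921 ChIP and 47356494 input), with exact Clopper-Pearson 95% intervals, which cover counting error only. Fold limits were applied with 1 read added to each library. Unlisted maxima were stretches of 6 or more ChIP reads, merged within 200 bp, with no listed start within 200 bp. All listed peaks in the window and all such maxima at 5-fold were named. The members, the lists and the measures were chosen with earlier results of these data known, and the stretches beside the cluster, the second apices and the tiles of like depth after seeing the reads. The pileup and interval scripts were tested on simulated data. Sequence around the summits, and the planned counts of peaks near other HIPK family and prostanoid genes, need a genome or annotation of the build and were not analysed here. Promoter sequences are RefSeq's (GRCm38.p6), with 3 entries for the 2 genes. Analyses ran in Python 3.11.15 with SciPy 1.17.1, NumPy 2.4.6 and pandas 2.3.3, and plots were drawn with matplotlib 3.10.9.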

Additional observations from a re-analysis of the deposited data

How the results depend on the processing

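Of 51 alternatives over 13 results, 14 of them chosen after seeing the data, 46 left the value inside its counting interval (or, for a count, within 1.5 times) and 5 moved it. None turned a direction, but this was judged only for ratios whose interval excluded 1. It could not be seen in the counts, the strand shares or the ratio between the outermost members. The ratio of the stretch before P1 was 1.1 over 50 kb, against 1.45 over 10 kb. Unlisted maxima numbered 6 with an extension of 80 positions, 18 at a height of 5 and 5 at a height of 7, against 10. Pairs of members numbered 3 within 10 kb, against 6 within 50 kb. The intervals at single summits are wide, so values inside them can still differ: P3 was at 12.5-fold and at 25.8-fold with an extension of 80 positions. With 1 read added to each library, scaling to the reads of the window gave 15.4 at P1, 22.2 at P2, 13.3 at P3 and 7.95 at P4, each above the value scaled to all reads with the same read added (12.5 at P3 and 7.47 at P4, for example). No paired analysis was possible because the files combine both runs of a group, and for the same reason no run could be left out. The alternatives for motifs around the summits were not run, so the motif count among the 13 results had none.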
